A study of Mus musculus with 3 samples.

Results

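Transcripts of the B lymphocyte lineage were examined in cells sorted from mouse leptomeninges, the thin inner membranes of the brain. The 9 genes were taken from the count table by their symbols, out of 46983 gene rows. Cd79a, Cd79b and Ighm belong to the B cell receptor and Igll1 to its precursor form. Vpreb3 is made by precursor and immature B cells. The others are the recombinase gene Rag1, the transcription factors Ebf1 and Pax5, and the mature B cell gene Ms4a1. All 9 were selected on their function and on their CPM values in these same libraries, such as the low Cd79a and Cd79b of library 1. Their levels are therefore a description and support nothing further. All 3 libraries (1, 2 and 3) belong to a single group, the pia-enriched fraction of vehicle-treated mice, so there was no untreated or treated contrast. The labels used here do not give the strain, sex or age of the mice, what the vehicle carried, the markers used for sorting, or whether each library came from a separate animal; differences between libraries may therefore be technical as well as biological. The measurement was bulk RNA sequencing of amplified cDNA, in counts per gene.

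B cells are made from progenitors in bone marrow. Ebf1 and Pax5 set up and hold the B cell programme, and the RAG enzyme then cuts and joins variable segments of the immunoglobulin genes. The finished heavy chain is first tested at the surface with a surrogate light chain, to which Igll1 (lambda 5) and its partner Vpreb1 belong. The heavy chain later pairs with a kappa or lambda light chain as the B cell receptor. Cd79a and Cd79b carry the receptor's signal into the cell, and Ms4a1 (CD20) appears on the surface as B cells mature. Plasma cells, the end stage, secrete antibody and lose much of this programme. B cells of several stages are known to live in the meninges and in the marrow of the adjoining skull.

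The libraries held 21002860 to 28704952 gene counts, and 3 counts, the limit that a count of 0 allows, correspond to 0.101 to 0.152 counts per 1000000 (CPM) after scaling. Such limits and the 95% exact intervals given below cover counting error only, since amplified reads without molecular identifiers are not independent molecules. Library 1 stood apart from the others: genes poor in G and C had lower values in it, and so had macrophage genes. All 10 fibroblast markers had counts in every library, with a summed level of 24449 to 30529 CPM. In bulk RNA, fewer B cells and less RNA per B cell cannot be told apart.

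The clearest pattern was that 6 of the 9 genes had lower CPM in library 1 than in either other library, with 41.1% of all genes with a mean count of at least 10 doing so. These were Cd79a, Cd79b, Vpreb3, Rag1, Pax5 and Ms4a1. Igll1 in library 1 was level with library 2, Ebf1 lay between the other libraries, and Ighm was highest in library 1. Pax5 and Ms4a1 had 0 counts in library 1, which was so for 1.39% of genes with that mean count. Over the 9 genes the median difference of log2(CPM + 1) between library 1 and the mean of libraries 2 and 3 was -2.04, against -0.0048 over 14409 genes tested. Between libraries 2 and 3 the median difference was -0.16, against 0.0048 over all genes. The plot of the 9 genes by library shows both patterns.

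**Figure D1:**
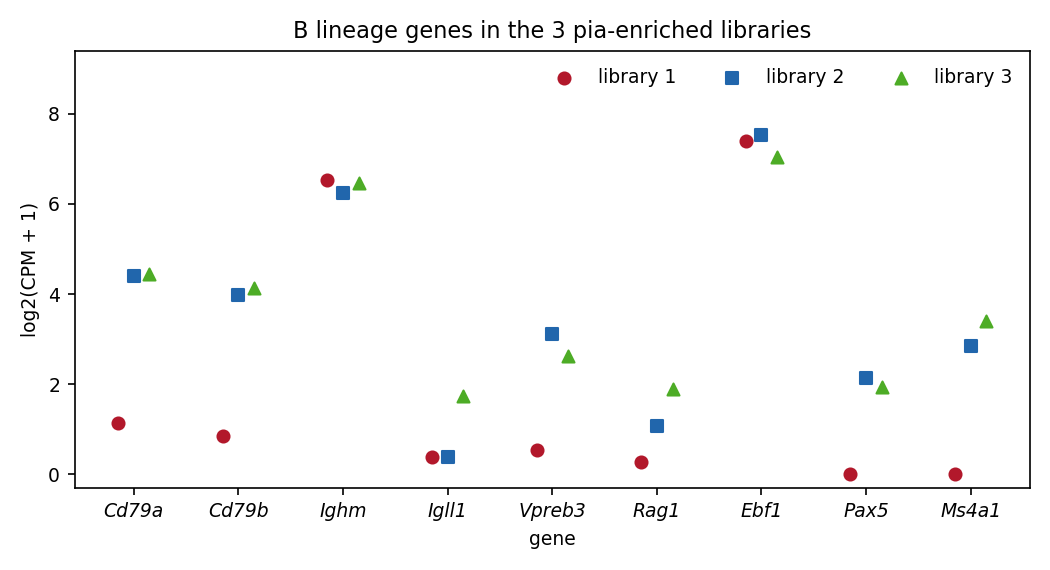
Level of each of the 9 B lineage genes, as log2(CPM + 1) on the vertical axis, with 1 point per library (circle, square and triangle for libraries 1, 2 and 3). Ighm and Ebf1 have like values in all 3 libraries. Cd79a, Cd79b, Vpreb3, Rag1, Pax5 and Ms4a1 are lowest in library 1, where Cd79a is at 1.15, Cd79b at 0.85 and Pax5 and Ms4a1 at 0. Rag1 is near 0 in library 1, and Igll1 in libraries 1 and 2.

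The signalling pair of the B cell receptor behaved alike. Cd79a (ENSMUSG00000003379.7, chromosome 7, 24897381 to 24902197) had 24, 599 and 536 counts in libraries 1, 2 and 3, which is 1.21, 20.1 and 20.7 CPM. Cd79b (ENSMUSG00000040592.11, chromosome 11, 106311341 to 106314762) had 16, 441 and 431 counts, which is 0.808, 14.8 and 16.6 CPM. Libraries 2 and 3 pooled exceeded library 1 by 16.8-fold for Cd79a (95% exact interval 11.2 to 26.3) and by 19.4-fold for Cd79b (11.9 to 34.0). Their proportion held: there were 0.667, 0.736 and 0.804 Cd79b counts per Cd79a count, and the interval of library 1 (0.331 to 1.31) contains the values of the other libraries.

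The heavy chain did not follow them. Ighm (ENSMUSG00000076617.9, chromosome 12, 113418558 to 113422730), the constant region of IgM, had 1820, 2235 and 2265 counts, which is 91.9, 75.1 and 87.3 CPM. Library 1 was the highest of the 3, and the libraries lay within a narrow range (84.8 ± 8.71 CPM, SD, n = 3). As a result there were 75.8 Ighm counts per Cd79a count in library 1 (95% exact interval 50.8 to 119), against 3.73 (3.41 to 4.09) in library 2 and 4.23 (3.84 to 4.65) in library 3. The kappa light chain constant region, Igkc, had 886, 727 and 1209 counts, which is 44.8, 24.4 and 46.6 CPM. Igkc too was not lowest in library 1, with 36.9 counts per Cd79a count there and 1.21 and 2.26 in libraries 2 and 3. Ighd, the IgD constant region that naive mature B cells make from the same transcript as IgM, had 0, 72 and 109 counts. Library 1 thus had Ighm without a count of Ighd, whereas libraries 2 and 3 had 31.0 and 20.8 Ighm counts per Ighd count.

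The variable segments of the same chains also differed between the libraries in their spread; they were not used to choose the 9 genes, but they were singled out after their values were seen, so this too is a description. Each developing B cell joins a heavy chain variable segment (Ighv) and a light chain segment (Igkv or Iglv) that its daughters inherit. In library 1 all 81 Ighv counts fell on a single segment, Ighv8-8 (chromosome 12, 115294062 to 115294504), of 185 Ighv rows, and the 95% exact interval of its share reaches down to 95.5%. In library 2 the 117 Ighv counts were spread over 44 segments, and the leading one, Ighv6-3, took 7.69% (3.58% to 14.1%). In library 3 there were 166 counts over 55 segments, with 6.02% (2.93% to 10.8%) on Ighv10-3. The total of Ighv counts was thus of the same order in the 3 libraries, and its spread over segments was not.

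Kappa segments gave the same picture. Of 292 Igkv counts in library 1, 283 (96.9%, interval 94.2% to 98.6%) were on Igkv4-57 (chromosome 6, 69575975 to 69576500), and only 4 of 162 Igkv rows had a count. Library 2 had 209 counts over 57 segments and library 3 had 385 over 69, in both led by Igkv1-135 with 9.57% and 10.1%. The segments that dominated library 1 were rare in the others: Ighv8-8 had 3 and 4 counts in libraries 2 and 3, and Igkv4-57 had 0 and 5. Library 1 had no Ighv or Igkv segment to itself: 1 of 65 Ighv and 1 of 83 Igkv segments with any count had counts in all 3 libraries. With segments of at least 5 counts only, a minimum chosen after seeing the data, the numbers of Ighv segments were 1, 5 and 11 and those of Igkv segments 2, 16 and 28.

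**Figure D2:**
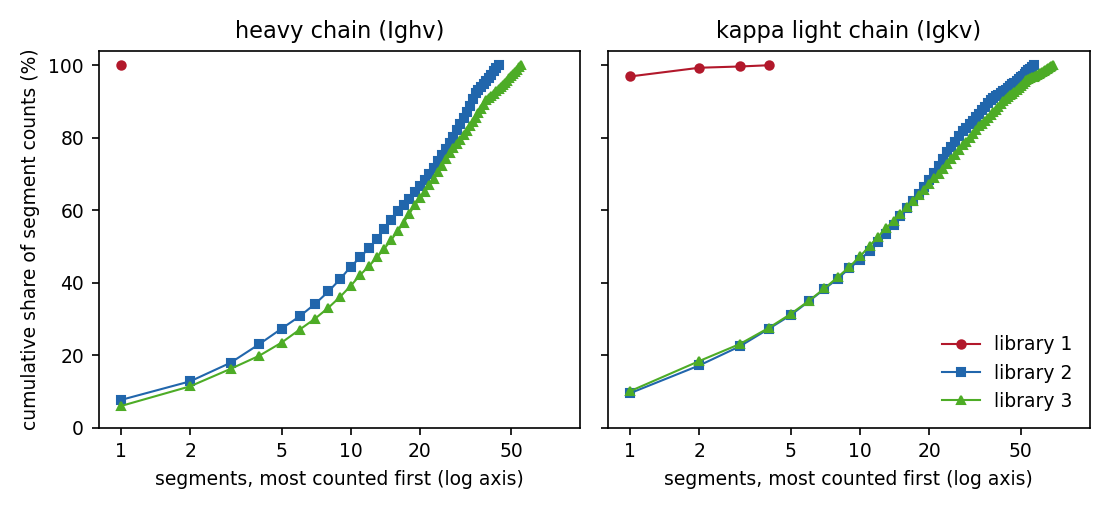
Cumulative share (%) of immunoglobulin variable segment counts on the vertical axis, over segments ordered from the most to the least counted on a logarithmic horizontal axis, for heavy chain (left) and kappa (right) segments, 1 line per library. Library 1 reaches 100% and 96.9% with its first segment, and libraries 2 and 3 start between 6.02% and 10.1% and need 44 to 69 segments to reach 100%.

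Igkc kept a similar proportion to its variable segments, with 3.03 counts per Igkv count in library 1 (95% exact interval 2.66 to 3.48), 3.48 in library 2 (2.98 to 4.08) and 3.14 in library 3 (2.80 to 3.53). For the heavy chain, Ighm counts per Ighv count were 22.5 in library 1 (18.0 to 28.4), 19.1 in library 2 (15.9 to 23.2) and 13.6 in library 3 (11.7 to 16.1), so that libraries 1 and 3 differed by more than counting error. The lambda light chain was nearly missing from library 1: Iglc1, Iglc2 and Iglc3 together made up 4 of 890 light chain constant counts (0.449%, interval 0.123% to 1.15%), against 137 of 864 (15.9%, 13.5% to 18.5%) and 119 of 1328 (8.96%, 7.48% to 10.6%). Variable segments and lambda genes have near-identical copies, and reads with several positions had been set aside in the table, so the segment counts are incomplete in all libraries.

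Genes of the precursor stage were measured at low levels, and they did not all follow the receptor genes. Vpreb3 (ENSMUSG00000000903.3, chromosome 10, 75943057 to 75949657), a VpreB relative made by precursor and immature B cells, had 9, 227 and 133 counts, which is 0.455, 7.63 and 5.13 CPM. Its pooled level in libraries 2 and 3 was 14.2-fold that of library 1 (95% exact interval 7.41 to 31.3). Per Cd79a count there were 0.375 Vpreb3 counts in library 1 (0.153 to 0.836), 0.379 in library 2 (0.324 to 0.442) and 0.248 in library 3 (0.204 to 0.301). Igll1 (ENSMUSG00000075370.10, chromosome 16, 16860671 to 16863985), lambda 5 of the surrogate light chain, had 6, 9 and 61 counts, which is 0.303, 0.302 and 2.35 CPM. Here library 3 stood alone, with libraries 1 and 2 alike. Rag1 (ENSMUSG00000061311.6, chromosome 2, 101638282 to 101649501) had 4, 33 and 70 counts, which is 0.202, 1.11 and 2.70 CPM, so that library 3 was again the highest; 80 of its exonic bases are shared with B230118H07Rik. Against Cd79a, Igll1 stood at 0.015 counts per count in library 2 (0.0068 to 0.029) and 0.114 in library 3 (0.086 to 0.149), and Rag1 at 0.055 (0.038 to 0.078) and 0.131 (0.100 to 0.168).

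Libraries 2 and 3, whose Cd79a levels had a ratio of 0.974 (0.865 to 1.10), therefore differed in several of these ratios by more than counting error. Igll1 and Rag1 per Cd79a count were higher in library 3, as was Ms4a1 at 0.311 in library 2 (0.262 to 0.367) and 0.465 in library 3 (0.398 to 0.541). Vpreb3 went the other way, as did Ebf1 at 9.17 (8.42 to 9.99) and 6.33 (5.78 to 6.94), whereas the intervals of Ighm, Cd79b and Pax5 overlapped. These intervals hold no spread between libraries. Between libraries 2 and 3, edgeR goodness of fit called 0 of the 8 genes it could test, against 0.175% of all tested genes. Igll1 was the one it could not test. Vpreb1, the partner of Igll1, had 14, 25 and 54 counts and was likewise highest in library 3. Rag2, which works only together with Rag1 and lies beside it, went the other way with 0, 70 and 2 counts; 208 of its exonic bases overlap an antisense gene, B230118H07Rik, and the strand setting of the counting is not given in the sources used here. Dntt, which adds bases at segment joints, had 1, 18 and 19 counts, and Il7r, the receptor for the cytokine that sustains early B cells, had 1, 59 and 33. Vpreb2 had 0 counts in every library. Of the list of 10 other early B genes, 6 could be tested. By edgeR goodness of fit with Benjamini-Hochberg adjustment 0 were called variable between libraries, against 0.437% of all tested genes. An unadjusted p below 0.05 was found for 1 of the 6. The others of that list are also known from stromal, endothelial, myeloid or T cells. Erg had 11.7, 12.5 and 7.29 CPM, Lef1 0.657, 1.28 and 0.771 CPM, and Bst1 1.16, 0.437 and 1.39 CPM. Cd93 had 2.93, 9.07 and 11.4 CPM and Il2ra 0.505, 2.92 and 4.05 CPM, both lowest in library 1.

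RefSeq promoter windows, from 250 bases before to 50 after a start in GRCm38.p6, were found for 6 of the 9 genes. The windows of Cd79a, at chr7:24897247-24897546 (plus strand), and Vpreb3, at chr10:75948050-75948349 (plus strand), are shown because these genes differed together between library 1 and the others. Those of Igll1, at chr16:16863936-16864235 (minus strand), and Rag1, at chr2:101649483-101649782 (minus strand), are shown because their counts per Cd79a count were higher in library 3 than in library 2. Capitals mark matches on either strand to the octamer ATTTGCAT, the E-box CAGGTG, the ETS core AGGAAGT or the TATA box TATAAA, none of which overlap in these windows.
Cd79a: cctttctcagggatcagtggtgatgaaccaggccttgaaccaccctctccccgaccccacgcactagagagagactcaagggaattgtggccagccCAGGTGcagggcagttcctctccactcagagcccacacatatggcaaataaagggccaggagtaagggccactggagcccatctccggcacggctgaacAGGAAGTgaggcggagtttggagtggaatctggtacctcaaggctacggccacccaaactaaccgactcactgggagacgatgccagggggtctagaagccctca
Vpreb3: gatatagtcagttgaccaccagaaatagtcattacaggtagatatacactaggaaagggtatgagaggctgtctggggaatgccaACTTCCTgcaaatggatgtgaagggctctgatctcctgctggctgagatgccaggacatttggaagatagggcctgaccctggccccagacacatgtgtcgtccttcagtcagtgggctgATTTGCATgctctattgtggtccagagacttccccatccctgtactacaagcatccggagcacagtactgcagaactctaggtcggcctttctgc
Igll1: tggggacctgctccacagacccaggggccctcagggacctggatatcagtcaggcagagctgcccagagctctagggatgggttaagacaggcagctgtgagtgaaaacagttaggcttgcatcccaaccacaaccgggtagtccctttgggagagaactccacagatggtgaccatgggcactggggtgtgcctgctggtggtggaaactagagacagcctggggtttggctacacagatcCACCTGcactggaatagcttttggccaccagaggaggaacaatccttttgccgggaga
Rag1: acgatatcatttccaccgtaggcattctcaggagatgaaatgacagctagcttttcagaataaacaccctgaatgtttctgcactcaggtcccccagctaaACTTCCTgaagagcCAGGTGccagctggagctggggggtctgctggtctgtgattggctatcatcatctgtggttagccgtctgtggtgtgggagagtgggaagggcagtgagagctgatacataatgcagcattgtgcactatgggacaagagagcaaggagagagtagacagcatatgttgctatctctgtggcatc

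The octamer, the letters bound by Oct factors and their B cell coactivator, occurred in the Vpreb3 window at position -45 counted from the start, and in 1.74% of 32851 RefSeq windows of this length. The E-box occurred in the Cd79a (-154), Igll1 (-8) and Rag1 (-135) windows and in 20.2% of all windows. An ETS core lay at -55 in Cd79a, -165 in Vpreb3 and -149 in Rag1, and 9.35% of all windows hold one. The TATA box, present in 13.6% of all windows, had no match in the windows of the 6 genes that have one. A match describes the letters only.

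The transcription factors that define the lineage differed from one another. Pax5 (ENSMUSG00000014030.15, chromosome 4, 44524757 to 44710487), which commits cells to the B lineage, had 0, 101 and 74 counts, which is 0, 3.39 and 2.85 CPM; 761 of its exonic bases overlap antisense genes. Library 1 was at least 20.7-fold lower than the pooled level of the others, taking 3 counts as its limit. Ebf1 (ENSMUSG00000057098.14, chromosome 11, 44617317 to 45008091), which acts before Pax5, had 3338, 5490 and 3392 counts, which is 169, 184 and 131 CPM. Library 1 lay between libraries 2 and 3 (161 ± 27.6 CPM, SD, n = 3). Ebf1 is also known from pericytes, adipocyte precursors and other stromal cells. Its counts per count of Pdgfra, a fibroblast receptor, were 1.35, 1.25 and 0.996, and per count of Pdgfrb 0.237, 0.340 and 0.244. Per Cd79a count they were 139, 9.17 and 6.33. Cd79a was chosen with its low value in library 1 known, so any gene not low there has a high ratio to it. The Ebf1 paralog Ebf2, also a stromal gene, had 38.5, 38.2 and 40.4 CPM. Ebf3 had 0.556, 0.907 and 1.89 CPM and Ebf4 5.05, 2.12 and 1.20 CPM. The level of Ebf1 therefore did not follow Cd79a, Cd79b, Vpreb3, Pax5 and Ms4a1 and was, like that of Ighm, not low in library 1. Its part from B cells cannot be told apart from that of stroma.

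Among 10 other transcription regulators, 7 were lowest in library 1, against 41.1% of all genes with a mean count of at least 10. Pou2af1, the coactivator of Oct factors in B cells, had 0, 218 and 119 counts, which makes library 1 at least 39.9-fold lower than the others pooled. The 2 most abundant of the list, Foxo1 (36.0, 47.6 and 39.6 CPM) and Tcf3 (10.4, 13.8 and 14.3 CPM), are active in many cell types and varied less.

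Ms4a1 (ENSMUSG00000024673.9, chromosome 19, 11249675 to 11266241), the mature B cell surface protein CD20, had 0, 186 and 249 counts, which is 0, 6.25 and 9.60 CPM. Library 1 was at least 51.5-fold lower than the others pooled. Fcrla, an Fc receptor-like protein inside B cells, had 0, 230 and 126 counts. Cd22, an inhibitory co-receptor, had 0, 59 and 51 counts, and the complement receptor Cr2 had 0, 20 and 4. All of these were at 0 in library 1. Cd72 was the exception of the co-receptors with 302, 562 and 381 counts (15.3, 18.9 and 14.7 CPM), and 1423 of its exonic bases overlap Tesk1 on the other strand. Of the co-receptor list, 8 of 10 genes were lowest in library 1, against 41.1% of all genes with a mean count of at least 10, which 9 of these 10 reach. Of this list 2 could be tested and 0 were called by edgeR goodness of fit, against 0.437% of all tested genes. An unadjusted p below 0.05 was found for 0 of the 2. The other 8 missed the minimum count.

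Of the genes gained at maturity, 6 of 10 were lowest in library 1, against 41.1% of all genes with a mean count of at least 10. Only 6 of these 10 reach that mean count, so the shares cover unlike sets of genes. Apart from Cd55 none had more than 86 counts in any library. Tnfrsf13c, the BAFF receptor, had 0, 85 and 45 counts, and Tnfrsf13b, the related receptor TACI, had 2, 62 and 80. Fcer2a (CD23), a marker of follicular B cells, had 3, 3 and 4 counts, and Fcmr, the receptor for IgM, had 0, 10 and 10. Fcrl1, an Fc receptor-like protein of B cells, had 0, 2 and 26 counts. The chemokine receptors Cxcr5 (32, 21 and 2 counts) and Ccr6 (3, 14 and 0 counts) did not follow Ms4a1, nor did Cd40 (23, 19 and 86 counts), which macrophages also carry. Cd55, a complement regulator of many cell types, had 1.01, 19.4 and 11.2 CPM. It was lower in library 1 (edgeR goodness of fit, Benjamini-Hochberg adjusted p = 0.022). This was 1 call among 2 tested genes of this list, against 0.437% of all tested genes. That call was lost when any library was left out.

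Plasma cell genes were mixed: 6 of 12 were lower in library 1 than in either other library, namely Mzb1, Xbp1, Sdc1, Irf4, Ighg2c and Ighg3. The share was 41.1% over all genes with a mean count of at least 10, which only 7 of these 12 reach. In library 1, 5 of the 12 had 0 counts. Jchain, which joins IgM units into pentamers in antibody-secreting cells, had 30, 1 and 39 counts. Libraries 1 and 3 were alike in Jchain, and library 2 was near 0. Prdm1, the regulator of plasma cell fate, had 3.99, 1.48 and 4.32 CPM, and Mzb1, a chaperone of IgM assembly, had 19, 50 and 26 counts. Of the 1.215 kilobases of Mzb1 exon, 695 bases are shared with SPATA24 on the same strand. Xbp1 (60.1, 62.1 and 107 CPM) and Sdc1 (29.3, 31.7 and 38.2 CPM) are known from many secretory and stromal cells. Irf4, which B cells share with other leukocytes, had 5, 130 and 318 counts and differed most between library 1 and the others. Tnfrsf17 (BCMA) had 0, 4 and 0 counts. Switched heavy chains had few counts: Ighg1 had 0, 0 and 10 counts, Ighg2b 0, 15 and 0, Ighg2c 1, 31 and 2, Ighg3 0, 13 and 2, and Igha 0, 3 and 0. Heavy chain constant counts in library 1 were thus IgM apart from 1 count of Ighg2c. Of this list 4 of 12 genes could be tested and 0 were called by edgeR goodness of fit, against 0.437% of all tested genes. An unadjusted p below 0.05 was found for 0 of the 4.

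Below the receptor, all 10 signalling genes were lowest in library 1, against 41.1% of all genes with a mean count of at least 10. Btk, Blnk and Blk were among those with 0 counts there. Blnk, the adaptor that links the receptor to phospholipase, had 0, 325 and 226 counts, at least a 65.3-fold lower level in library 1. The most abundant of the list were Ptpn6 (2.78, 14.8 and 16.9 CPM) and Lyn (1.87, 11.3 and 16.4 CPM), a phosphatase and a kinase that myeloid cells share. None of the 6 tested genes was called by edgeR goodness of fit, against 0.437% of all tested genes, and 3 had an unadjusted p below 0.05.

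**Figure D3:**
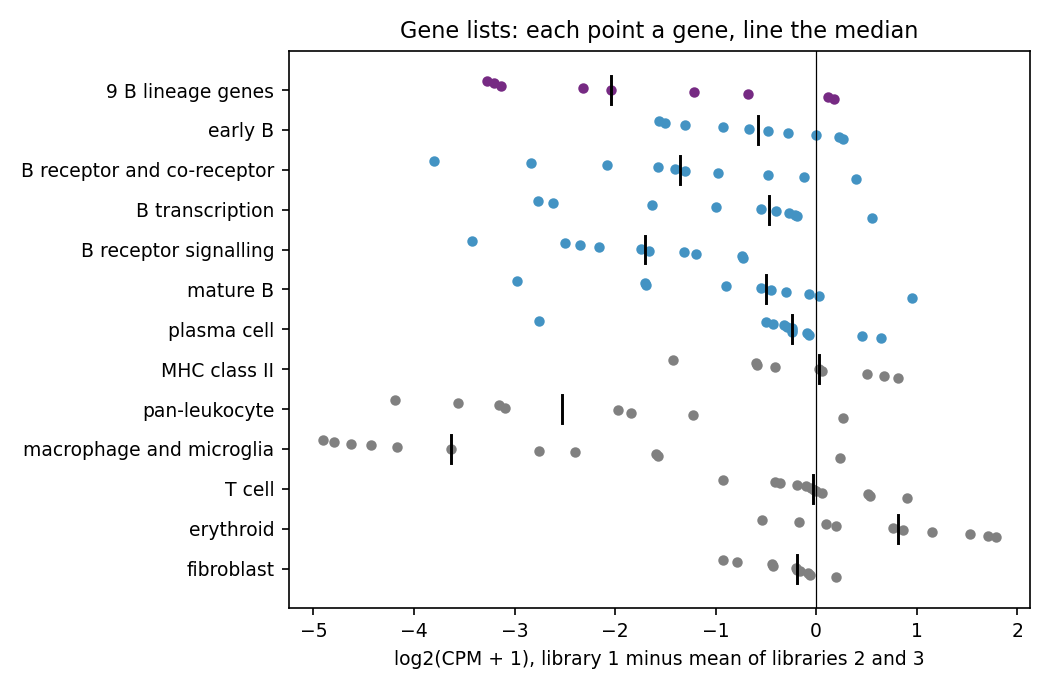
Difference of log2(CPM + 1) between library 1 and the mean of libraries 2 and 3 on the horizontal axis, 1 point per gene and a line at each list's median, for the 9 genes, the 6 other B lineage lists and lists of other cell types. Medians are -2.04 for the 9 genes, -1.70 for receptor signalling, -0.24 for plasma cells, -3.64 for macrophages and microglia, -0.035 for T cells and 0.81 for erythroid cells.

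The test across all genes asked whether a gene varied between the 3 libraries more than genes of its abundance do. It called 63 of 14409 genes (0.437%), 0.403% being calls with a lower value in library 1. Among the 9 genes, 5 passed the minimum of about 10 counts in every library and 2 were called, Cd79a and Cd79b, both lower in library 1; this count describes genes chosen with these values known. Without library 3, 5 were tested and 0 were called (3 at an unadjusted p below 0.05), and without library 2, 4 were tested and the same 2 were called. Between libraries 2 and 3 alone, where the share called over all genes was 0.175%, 8 were tested and 0 were called, with 0 at an unadjusted p below 0.05. The minimum removes genes missing from library 1: with a mean count of at least 10, which kept all 9 and called 1.11% of genes (0.958% lower in library 1), Ms4a1 and Pax5 were called as well. Both are at 0 in library 1 and pass that filter only through libraries 2 and 3, where they are high, so their calls lend no support. Of 62 genes on the 6 other B lineage lists, 26 were tested and 1 was called (Cd55), lower in library 1, while the mean count filter tested 51 and called 8, all lower in library 1; Blnk, Fcrla, Pou2af1, Irf4, Cd55, Ighd and Rag2 were among them. Apart from Cd55, these too passed it only through library 2, library 3 or both.

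Levels of different genes were compared per kilobase of exon. The order was Ighm (45.0 ± 4.62 CPM per kilobase, SD, n = 3), Ebf1 (16.5 ± 2.83), Cd79a (9.61 ± 7.60), Cd79b (7.51 ± 6.05), Vpreb3 (5.13 ± 4.24), Ms4a1 (0.854 ± 0.788), Igll1 (0.456 ± 0.547), Pax5 (0.235 ± 0.206) and Rag1 (0.202 ± 0.191). Only Ighm from Ebf1 and Vpreb3 from Ms4a1 lay further apart than the larger SD of each pair of neighbours. Ighm ranked first in all 3 libraries, and Cd79b and Vpreb3 ranked 4 and 5 in all 3; in library 3 Cd79a (14.2) lay above Ebf1 (13.4), and in library 1 it was at 0.832 against 17.3.

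Markers of other leukocytes moved with some of these genes. Ptprc (CD45), carried by nearly all leukocytes, had 5, 257 and 281 counts, so that Cd79a counts per Ptprc count were 4.80 (95% exact interval 1.80 to 16.1), 2.33 (2.01 to 2.71) and 1.91 (1.65 to 2.21). In raw counts, Cd79a relative to Ptprc was thus not lower in library 1, where Ptprc had only 5 counts. Ptprc has 39.4% GC, and values in library 1 vary with GC content, as described below. Removal of the GC and length trends took the log2 difference of Ptprc from -3.09 to -1.89 and of Cd79a from -3.27 to -3.71. On this scale Cd79a was lower in library 1 by more than Ptprc was, both before and after this step. The added 1 CPM shrinks the difference of Ptprc, which was at 0.253 CPM in library 1. Without it, libraries 2 and 3 pooled exceeded library 1 by 38.2-fold for Ptprc (95% exact interval 16.3 to 118). For Cd79a this was 16.8-fold (11.2 to 26.3), so the order of the 2 genes depends on the measure. Of 8 pan-leukocyte genes 7 were lowest in library 1, as were 10 of 11 macrophage and microglia genes. The share over all genes with a mean count of at least 10 was 41.1%. The macrophage and microglia genes summed to 26.7, 198 and 548 CPM. Among these Adgre1 was at 0 in library 1, and 5 of 8 tested genes were called, all lower in library 1. Over all tested genes 0.403% were called and lower in library 1. C1qb was at 1.62, 39.2 and 130 CPM, so that libraries 2 and 3 differed more in it than in Cd79a. T cell genes were low everywhere, with a summed level of 6.69 to 10.0 CPM that came mostly from Lck and Trac; Cd3e had 12, 0 and 7 counts. The natural killer list summed to 0.638 to 1.72 CPM, and the granulocyte list, which includes marrow precursors, to 3.84 to 5.78 CPM with Mpo at 0, 7 and 8 counts. Haemoglobins were the opposite of the B lineage genes: the erythroid list summed to 823, 209 and 344 CPM. MHC class II genes, which B cells share with macrophages, did not follow either, with Cd74 at 470, 460 and 844 CPM; H2-Ob, a class II gene largely of B cells, had 0, 48 and 46 counts. Proliferation genes were lowest in library 1 in 11 of 12, with Mki67 at 7, 171 and 142 counts. Pcna, the most abundant of them, was the exception with 73.5, 68.7 and 89.9 CPM, and Mcm5, the next, had 6.82, 12.2 and 15.5 CPM. Of the 8 that could be tested, 0 were called by edgeR goodness of fit, against 0.437% of all tested genes, and 2 had an unadjusted p below 0.05. The part of these cell types in the values of the 9 genes was not tested.

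Base composition moves with library 1, and its values differ among the 9 genes. Over 10 equal groups of tested genes by GC content, the median difference between library 1 and the others ran from -1.06 in the lowest (median GC content 39.9%) to 0.36 in the highest (59.4%). Cd79a and Cd79b have 54.9% and 54.2% GC, where genes were somewhat higher in library 1, and removal of the trends with GC content and length took their differences from -3.27 to -3.71 and from -3.21 to -3.63. Ms4a1, with 40.6%, went from -3.13 to -2.18 and Rag1, with 44.1%, from -1.22 to -0.65. Vpreb3 went from -2.32 to -2.76 and Pax5 stayed at -2.04. Ighm moved from 0.18 to -0.09 and Ebf1, with 43.1%, from 0.12 to 0.84, so the sign of Ighm depended on this step; with plain totals Ebf1 was at -0.0098.

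**Figure D4:**
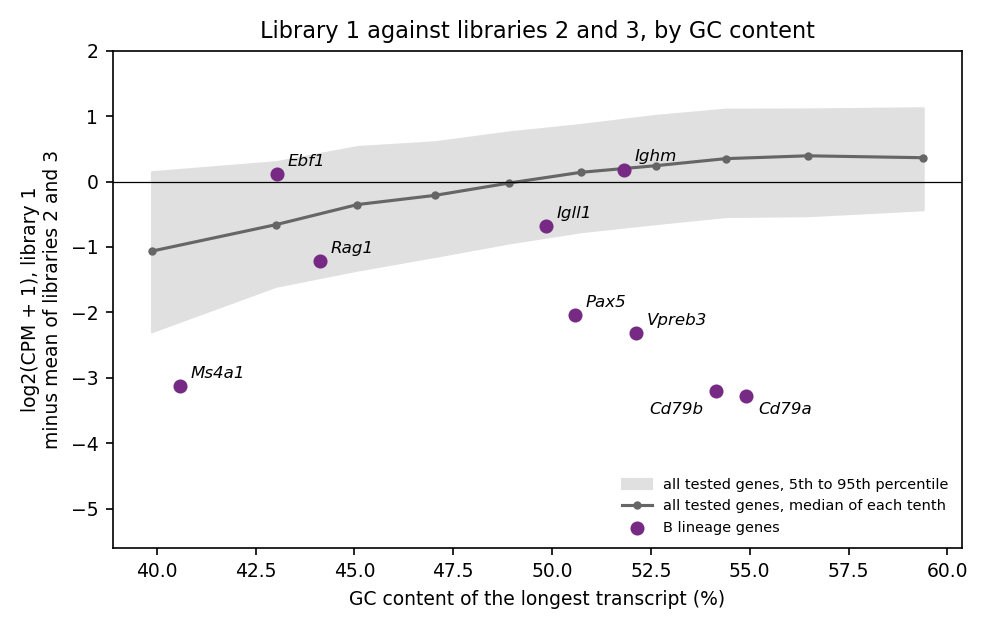
Difference of log2(CPM + 1) between library 1 and the mean of libraries 2 and 3 on the vertical axis against GC content (%) on the horizontal axis. The line and band give the median and 5th to 95th percentile of 14409 tested genes, less those without a GC value, in 10 groups. Cd79a, Cd79b, Vpreb3, Pax5 and Ms4a1 lie below the band, and Ighm, Ebf1, Igll1 and Rag1 lie within it. Pax5, Ms4a1, Igll1 and Rag1 missed the minimum count and are not among the tested genes. No tested gene has 0 counts in library 1, as Pax5 and Ms4a1 do, so the band is not a like reference for them.

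The genes whose profile over the 3 libraries was nearest to that of Cd79a and Cd79b were sought among 16383 others with a mean count of at least 10. Likeness was the largest difference in any library between centred log2(CPM + 1) values, which over 3 libraries is a weak criterion. The 10 nearest were F5, Siglecg, Kl, Orc4, Ptprc, Il13ra1, Rac2, Tc2n, Ly6d and Eif2s3y, with differences from 0.031 to 0.22. F5 had 1.72, 23.1 and 24.6 CPM and Siglecg 0.303, 12.3 and 12.3 CPM. The 10 include Eif2s3y of the Y chromosome, at 4.75, 66.5 and 57.6 CPM, which is not a marker of any cell type. The labels used here do not give the sex of the mice. GC content of the 10 ran from 34.1% (Tc2n) to 54.0% (Ly6d), with Eif2s3y at 36.4%, and genes poor in G and C were lower in library 1. Why Eif2s3y was low there was not tested.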

How the data were processed

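The deposited values were counts of reads per gene, not normalized, in 1 table with a column for each of 3 libraries. Per the submitters' processing notes, HTSeq 0.5.3, DESeq2 1.22.1 and the build mm10 were used; their roles, the aligner and the strand setting are not given in the sources used here. The 5 rows of the table that name no gene (39.1% to 45.6% of each column) were left out. Per the labels' protocols, 2 ng of RNA was amplified with a template-switching kit. Coordinates, exon lengths and GC content came from GENCODE M21 (GRCm38, the mm10 assembly), in which 46488 of 46983 identifiers (98.9%) were found.

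TMM scaling (edgeR 4.0.16, R 4.3.3) was applied, and levels are CPM or log2(CPM + 1), whose differences understate changes of low genes. Genes past filterByExpr (minimum count 10, here needed in all 3 libraries) were tested for goodness of fit in edgeR, with dispersions from its trend (2 degrees of freedom, Benjamini-Hochberg adjustment, threshold 0.05), since a single group gives the quasi-likelihood test no contrast. The test was run on simulated counts of the 14409 genes: of 200 changed 8-fold in library 1, 116 were called, beside 4 unchanged genes. These counts were drawn at the trended dispersion that the test assumes, with no scatter of genes around it and no GC trend. The 4 false calls therefore give no error rate for the real libraries. p-values measure the spread between these libraries, which may be technical. Ratios of counts have exact binomial intervals (95%). Alternatives were DESeq2 1.42.0 size factors, plain totals, other filters, a pseudocount of 0.25, removal of GC content and length trends, and leaving out each library.

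The 9 genes and the 22 lists (201 genes, written from general knowledge) were chosen with earlier results of these data known. The rule named the 9 genes, every gene of the early B, co-receptor, mature B, plasma cell and Ebf lists, the 2 most abundant of each other list, and the 10 nearest profiles. Variable segments, H2-Ob, Mki67, Ptprc, Cd3e, Mpo, Adgre1, Pdgfra, Pdgfrb, Pou2af1, Blnk, Btk and Blk were named after their values were seen. A few genes of the lists are not reported here by name. Promoter windows came from RefSeq.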

Additional observations from a re-analysis of the deposited data

Results flagged for a closer look

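Reads aligned to more than 1 place, which the table counts apart and which no value above uses, made up 16.5% of the table's totals on average. Reads of near-identical variable segments and lambda constant genes would have gone there. The table gives only 1 total per library, so the part of such genes in it is not known.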

How the results depend on the processing

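The count of variable genes (63) was 63 and 73 with other scalings, 98 once trends with GC content and length were taken out, 136 with every gene with any count and 182 with a mean count of at least 10, and ranged from 13 to 29 when each library was left out. Of the 9 genes, 2 were called, where the share over all tested genes was 0.437%. This was 3 after the trend removal and with every gene with any count. It was 4 with a mean count of at least 10 (1.11% of all genes), which Ms4a1 and Pax5 pass only through libraries 2 and 3. When a library was left out it was 0 to 2. The 1 call on the 6 other B lineage lists became 3, 7 and 8 under the trend removal and both wider filters, and was 0 in each fit that left out a library (edgeR goodness of fit; 4 to 5 at an unadjusted p below 0.05). Members at 1 CPM or more in every library numbered 3, and 3 to 8 when a library was left out, 8 without library 1. The median difference of the 9 genes for library 1 (-2.04) kept its sign under every alternative run, from -3.21 to -1.95, whereas that of library 2 against library 3 (-0.16) turned to 0.027 after the trend removal. Of 36 single-gene alternatives 30 moved by less than the spread between libraries; 2 reversed, Ebf1 with plain totals (-0.0098) and Ighm after trend removal (-0.090). The number of separated neighbours in the order per kilobase (2) was 1 to 4 when a library was left out. Beyond these constructions the cause was not tested. No paired analysis was possible because all libraries are in 1 group. Depth limits the genes at 0 in library 1, which may lie anywhere below 0.152 CPM.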
